A study of Homo sapiens with 28 samples.

Results

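The genes described here encode the proteins of the mitochondrial ribosome, chosen as every amplicon row whose symbol begins with MRPL or MRPS followed by a number. They came to 77 of the 18961 rows of the deposited table, of which 49 carry large-subunit (MRPL) and 28 small-subunit (MRPS) symbols. Of these, 76 passed the filter on low values and were tested. MRPL47 did not pass it and lay between 0 and 1.5 CPM in every library.

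The 28 libraries come from 4 established human hepatoma lines (HepG2, Hep3B, HuH7, PLC/PRF/5). In each line the in ovo group holds 4 libraries from tumours and the in vitro group 3 libraries from cultured cells. The tumours grew for 9 days on the chorioallantoic membrane of fertilized white leghorn chicken eggs, between grafting at embryonic day 9 and removal at embryonic day 18. The in vitro groups are the same lines without grafting, and no drug or gene change is given for either. All 28 libraries were made from 500 ng of total RNA with a targeted kit (DriverMap) that amplifies 1 short stretch per human gene. RNA came off Midi columns for tumours and Mini columns for cultures, so the column and the condition cannot be told apart. No label says that libraries of 1 group came from separate eggs or cultures, and the p values below measure only how far these libraries vary. A tumour grown on an egg membrane can hold chicken cells as well, and what chicken RNA adds to the human amplicons was not tested. In such bulk samples, fewer cells of a type and less RNA per cell cannot be told apart.

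The mitochondrial ribosome translates the few mRNAs of the mitochondrial genome, which encode core subunits of the respiratory chain and of ATP synthase. Its RNAs are transcribed in the mitochondrion, whereas its proteins are all encoded in the nucleus, made in the cytosol and imported. Many of these proteins have bacterial relatives, and others were gained in the mitochondrial lineage. Liver cells are rich in mitochondria.

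Recovered depth was 6085750 to 15086465 reads in the in ovo libraries and 6205368 to 8662998 in the in vitro libraries, so that a floor of 3 reads stands at 0.199 to 0.493 CPM and at 0.346 to 0.484 CPM. In ovo libraries numbered 3 stood apart in HepG2, HuH7 and PLC/PRF/5. Pearson's r of log2 values between library 3 and the other tumours was 0.904 to 0.94 for HepG2, 0.871 to 0.948 for HuH7 and 0.957 to 0.977 for PLC/PRF/5, while among the other tumours it was 0.982 to 0.99, 0.962 to 0.986 and 0.983 to 0.993. In Hep3B the ranges overlapped, at 0.923 to 0.98 with library 3 and 0.963 to 0.977 without it. Of the olfactory receptor amplicons, which liver cells are not known to use, group means of 19.8 to 27.7% had a read in the tumours and 2.72 to 6.8% in the cultures. The 8 hepatocyte markers looked at (ALB, TTR, AFP and others) all had reads in each group except the PLC/PRF/5 cultures, where ALB and TTR were at 0. They summed to 3926 to 6512 CPM in HuH7 tumours and 13907 to 14306 CPM in HuH7 cultures. The sums were higher in the tumours of the other lines, at 173242 to 312530 CPM in Hep3B tumours and 26101 to 27792 CPM in Hep3B cultures, 150617 to 259679 CPM in HepG2 tumours and 87769 to 95124 CPM in HepG2 cultures, and 736 to 1906 CPM in PLC/PRF/5 tumours and 7.53 to 13.8 CPM in PLC/PRF/5 cultures. The 7 endothelial markers, of which KDR was at 0 in all groups, summed to 5.74 to 21 CPM in HuH7 tumours and 21.4 to 23.3 CPM in HuH7 cultures, and to 8.06 to 11 CPM in Hep3B tumours and 1.34 to 2.05 CPM in Hep3B cultures. The endothelial sums were also higher in HepG2 tumours (49.8 to 60.3 CPM) than in HepG2 cultures (9.57 to 12.2 CPM), and in PLC/PRF/5 tumours (2.35 to 7.59 CPM) than in PLC/PRF/5 cultures (0.236 to 0.859 CPM). The 7 fibroblast markers summed to 34.6 to 133 CPM in HuH7 tumours and 201 to 208 CPM in HuH7 cultures, 59.9 to 89.6 CPM in PLC/PRF/5 tumours and 140 to 190 CPM in PLC/PRF/5 cultures, 3.35 to 4.17 CPM in HepG2 tumours and 18.6 to 21.8 CPM in HepG2 cultures, and 10.1 to 34.1 CPM in Hep3B tumours and 11.9 to 15.6 CPM in Hep3B cultures. Of these markers, POSTN was at 0 in HuH7 tumours, and DCN and POSTN were at 0 in HuH7 cultures. The 7 leukocyte markers summed to 9.07 to 65.1 CPM in HepG2 tumours and 385 to 401 CPM in HepG2 cultures, and to 6.07 to 11.1 CPM in HuH7 tumours and 37.7 to 42.2 CPM in HuH7 cultures. Their sums overlapped between tumours and cultures in Hep3B and PLC/PRF/5. No library had more than 0.48 CPM over the 5 erythroid markers. The part of these markers in the results below was not tested.

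Each gene was read through 1 amplicon, and the sequence of that amplicon is what was measured. The deposited sequences of 76 of the 77 members matched a GENCODE release 29 transcript exactly, and that of MRPL30 did not. Of the 76, 54 crossed at least 1 exon junction and 22 lay within 1 exon. The stretch was coding in 72 and reached into a UTR in 4. The amplicons of MRPS24, MRPL53, MRPL12, MRPS9, MRPS17 and MRPL38 also lie in a second annotated gene, so their reads cannot be given to 1 gene with certainty. The 8 amplicons below are shown for members that rose in several lines (MRPL11, MRPL21, MRPS30), members that fell in several lines (MRPL2, MRPL48, MRPS10, MRPS18A) and a member whose level set lines apart (MRPL43). Capitals mark up to 5 bases on either side of an exon junction, and the amplicons of MRPS30 and MRPL43 hold none. All are coding and are written 5′ to 3′ in the direction of the mRNA.
MRPL11: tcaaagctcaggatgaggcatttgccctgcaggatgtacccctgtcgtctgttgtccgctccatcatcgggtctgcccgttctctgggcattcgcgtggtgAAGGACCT
MRPL21: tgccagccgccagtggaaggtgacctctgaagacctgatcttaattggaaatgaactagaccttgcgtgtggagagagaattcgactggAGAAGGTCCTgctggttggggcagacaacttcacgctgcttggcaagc
MRPS30: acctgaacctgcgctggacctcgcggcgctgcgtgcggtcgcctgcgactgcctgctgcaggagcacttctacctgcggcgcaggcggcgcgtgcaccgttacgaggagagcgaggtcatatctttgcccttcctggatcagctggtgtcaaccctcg
MRPL2: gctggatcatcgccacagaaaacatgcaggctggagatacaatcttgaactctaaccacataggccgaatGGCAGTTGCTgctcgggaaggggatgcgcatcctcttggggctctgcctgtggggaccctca
MRPL48: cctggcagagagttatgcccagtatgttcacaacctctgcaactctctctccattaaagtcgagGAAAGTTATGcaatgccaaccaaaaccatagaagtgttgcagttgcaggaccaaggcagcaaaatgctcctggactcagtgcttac
MRPS10: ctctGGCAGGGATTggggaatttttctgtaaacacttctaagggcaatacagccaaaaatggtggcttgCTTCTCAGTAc
MRPS18A: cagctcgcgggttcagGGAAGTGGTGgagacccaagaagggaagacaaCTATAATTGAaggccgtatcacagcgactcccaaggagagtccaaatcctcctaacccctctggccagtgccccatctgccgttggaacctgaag
MRPL43: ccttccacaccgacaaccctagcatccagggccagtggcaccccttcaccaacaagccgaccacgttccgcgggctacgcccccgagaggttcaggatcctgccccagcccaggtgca

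By exact match on GRCh38, and with introns included in the span, these amplicons lie at chr11:66436110-66437209 for MRPL11 (minus strand, exons 4 to 5), chr11:68893413-68896608 for MRPL21 (minus strand, exons 4 to 5), chr5:44809358-44809515 for MRPS30 (plus strand, exon 1) and chr6:43055951-43056155 for MRPL2 (minus strand, exons 4 to 5). Those of the other members shown lie at chr11:73844908-73859987 for MRPL48 (plus strand, exons 5 to 6), chr6:42214187-42217810 for MRPS10 (minus strand, exons 1 to 3), chr6:43678536-43687688 for MRPS18A (minus strand, exons 1 to 3) and chr10:100986744-100986861 for MRPL43 (minus strand, exon 3). MRPL43 is a case where the amplicon sees only part of the gene's products, since 3 of its 11 annotated coding transcripts contain it. For MRPL11 the amplicon is in 2 of 4 coding transcripts.

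Levels are given below as TMM-scaled CPM, and differences are of log2(CPM + 1), in ovo minus in vitro, a scale that understates the change of low genes. Amplicons differ in how well they amplify, so levels are compared between libraries and not between genes. By mean level 19 members lay under 10 CPM, 39 between 10 and 100 CPM, and 18 at 100 CPM or more. Summed over members, they took 0.421 ± 0.0428% of reads in HepG2 tumours and 0.414 ± 0.0159% in HepG2 cultures (SD, n = 4 and 3). In the other lines the tumours gave them the smaller share. That share was 0.357 ± 0.0314% in Hep3B tumours and 0.518 ± 0.0098% in Hep3B cultures, 0.452 ± 0.0545% in HuH7 tumours and 0.551 ± 0.0023% in HuH7 cultures, and 0.722 ± 0.0422% in PLC/PRF/5 tumours and 0.802 ± 0.0058% in PLC/PRF/5 cultures. After TMM scaling, with factors of 0.447 to 0.711 in Hep3B tumours, the order turned in Hep3B, where the scaled sum was 6321 ± 951 CPM in the tumours and 4637 ± 45.6 CPM in the cultures. In HuH7 the scaled sums were 4805, 3812, 6865 and 3142 CPM in the tumours, against 4636, 4627 and 4475 CPM in the cultures. The groups overlapped, and the HuH7 mean was higher in the tumours (4656 ± 1623 CPM, against 4580 ± 90.4 CPM) through library 3, without which it was 3920 ± 837 CPM. The scaled sums of PLC/PRF/5 overlapped too, with means of 6128 ± 855 CPM in the tumours and 5740 ± 458 CPM in the cultures. In HepG2 all tumours, at 4102 to 6658 CPM, lay above all cultures, at 3913 to 3996 CPM. Without library 3 the HepG2 tumours had 4227 ± 139 CPM.

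Set against their cultures, more mitochondrial ribosomal protein genes were called lower than higher in the tumours of HuH7 and Hep3B. Few were called in HepG2 and PLC/PRF/5. In Hep3B the scaled sum over members was nonetheless higher in the tumours. In HuH7, 32 of 76 members were called lower and 1 higher, against 19.8% and 23.6% of the 13100 genes tested. In Hep3B, 27 were called lower and 9 higher, against 27.4% and 24.6% of all genes. The HuH7 share, 42.1% lower, was over the background, and the Hep3B share, 35.5% lower, was nearer to it. In HepG2, 6 members were lower and 6 higher, with backgrounds of 13% and 12.1%. In PLC/PRF/5, 5 were lower and 2 higher, with backgrounds of 5.61% and 11.9%. Both counts in HepG2 and PLC/PRF/5 lay at or under the background, apart from the 6.58% lower in PLC/PRF/5.

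The members' median difference was -0.55 for HuH7, -0.27 for Hep3B, -0.26 for PLC/PRF/5 and -0.08 for HepG2. Over all genes tested the medians were 0.01 for HuH7, -0.05 for Hep3B, 0.07 for PLC/PRF/5 and -0.01 for HepG2. In the mean of the 4 lines, 38 members were called lower and 15 higher, against 32.6% and 33.7% of all genes, with a median of -0.29. Of the 28 members with MRPS symbols 18 were lower and 4 higher, and of the 48 with MRPL symbols 20 were lower and 11 higher. The MRPS symbols include MRPS30 (higher) and MRPS18A (lower), whose products sit in the large subunit. No test compared the symbols. Of the 76, 33 (43.4%) were below 0 in all 4 lines, as were 21.7% of all genes, and 14 (18.4%) were above 0 in all 4, as were 22.1%. No member was called in opposite directions in 2 lines, which 8.87% of all genes were. In no line were 25 of the 76 members called, against 23.6% of all genes. With edgeR's quasi-likelihood test on recovered reads, 28 members were lower and 3 higher in HuH7 (15% and 24.7% of all genes), 26 and 9 in Hep3B (22.4% and 25.5%), 4 and 7 in HepG2 (11% and 13%), and 3 and 2 in PLC/PRF/5 (4.15% and 13%). In the mean of lines it called 34 lower and 17 higher (25.8% and 34.1%).

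**Figure D1:**
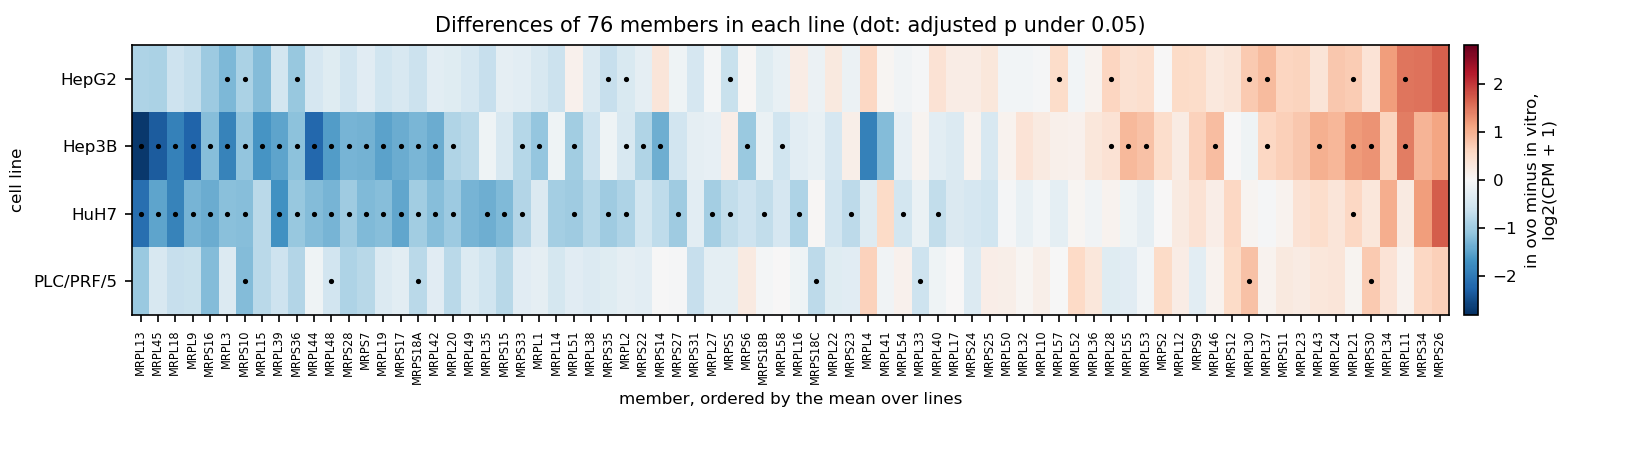
Difference in ovo minus in vitro on the log2(CPM + 1) scale for 76 members (columns, ordered by their mean over lines) in 4 lines (rows), with a dot where the adjusted p was under 0.05. Blue columns, lower in ovo, fill the left, and 33 members lie below 0 in all 4 lines.

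Without the 4 in ovo libraries numbered 3, most counts rose among the members and among all genes. The members then had 44 lower and 2 higher in HuH7 (23.2% and 26.9% of all genes), 31 and 15 in Hep3B (32.3% and 27.4%), 5 and 10 in HepG2 (15.9% and 17.9%), and 15 and 3 in PLC/PRF/5 (11.3% and 18.2%). In the mean of lines 45 were lower and 12 higher (32.9% and 35.4%). HuH7 again had many more lower than higher calls. Of the calls described below for named members in single lines, those of MRPS5 and MRPS36 in HepG2 were lost without these libraries, and no direction turned. Scaling mattered for the split between directions. With total counts alone the median of all genes shifted to -0.74 in Hep3B, and 59 members were called lower and 1 higher there (52.1% and 9.2% of all genes), 6 and 2 in HepG2 (15.9% and 9.15%), and 41 and 0 in HuH7 (23.2% and 19.3%). In PLC/PRF/5, DESeq2's size factors gave 9 lower and 0 higher (7.99% and 8.97% of all genes). In Hep3B more members were thus called lower than higher with TMM scaling and with total counts. Their number depended on the scaling, which moved all genes as well. A replicate left out moved the lower calls to between 1 and 10 in HepG2, with 1 without HepG2 in ovo replicate 3 or in vitro replicate 1, and to between 1 and 9 in PLC/PRF/5, with 1 without in ovo replicate 3 or in vitro replicates 2 or 3. No shares of all genes are given for these omissions, so the moves cannot be told from moves of all genes.

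The differences went with amplicon GC content, across members as across all genes. Over the 76 members Spearman's rho between GC content and the difference was 0.60 for HuH7, 0.61 for Hep3B, 0.58 for HepG2 and 0.47 for PLC/PRF/5. Over 13100 genes it was 0.51 for HuH7, 0.46 for Hep3B, 0.27 for HepG2 and 0.39 for PLC/PRF/5. These points share libraries and depth, and are given as a description. In Hep3B, 19 of the 25 members of lowest GC (39.5 to 50%) were lower and none higher, against 0 lower and 6 higher of the 25 of highest GC (58.1 to 68.7%). In HuH7, 17 of the 25 members of lowest GC and 2 of the 25 of highest GC were lower. Shares of all genes in these GC ranges are not given, so these counts do not set the members apart from other genes.

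With GC content and length as covariates the members were again lower in number in HuH7, where 35 were called lower and 1 higher, with backgrounds of 21.3% and 19.9%. In Hep3B 23 were lower and 5 higher, with backgrounds of 21.6% and 23.1%. HepG2 had 7 lower and 8 higher (backgrounds 13.9% and 15.5%), and PLC/PRF/5 12 lower and 1 higher (backgrounds 9.42% and 9.68%). The mean of lines had 39 lower and 9 higher (backgrounds 29% and 29.9%), with a median of -0.29 as before. Which members were called changed more than the totals did. Of the 38 members lower in the mean of lines, 30 were also lower with the covariates, and of the 15 higher, 6 were also higher. In HuH7, 11 of the 25 members of highest GC were lower with the covariates, against 9 of the 25 of lowest GC, again without shares of all genes. With the covariates no member was higher in 3 lines or in 4, against 5.79% and 1.08% of all genes, and 6 were lower in at least 3, against 5.47%.

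**Figure D2:**
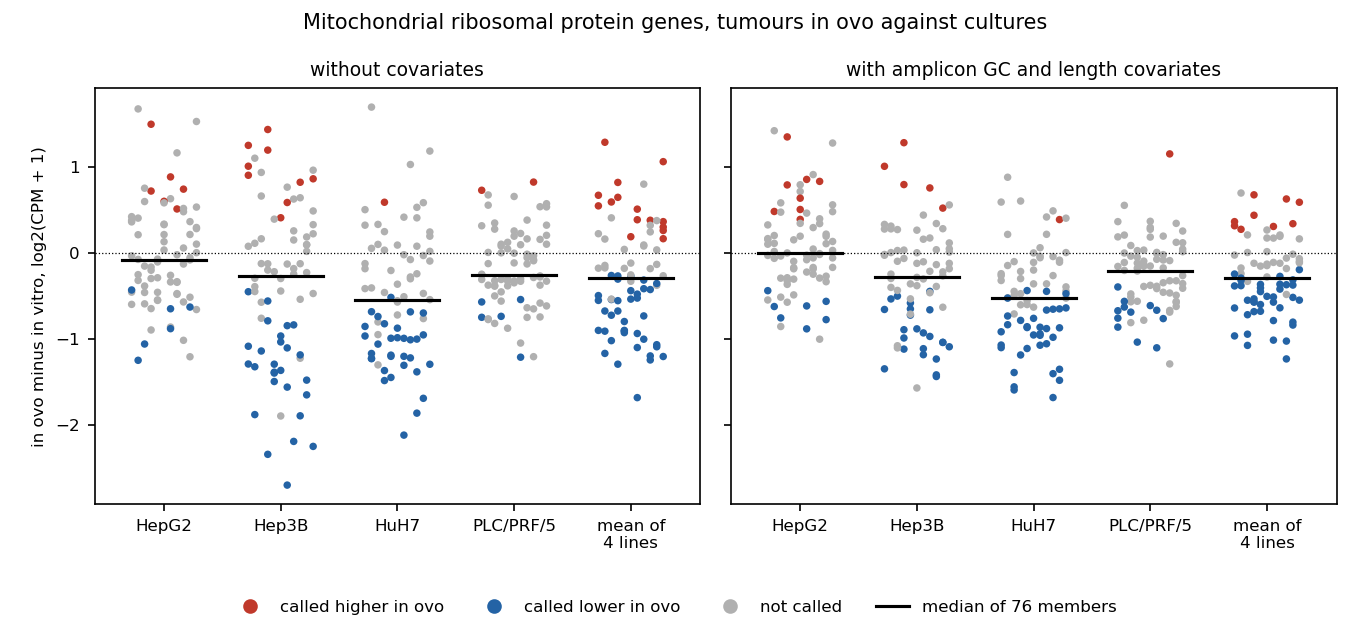
Differences in ovo minus in vitro, log2(CPM + 1), of 76 members per line and in the mean of 4 lines, without (left) and with (right) covariates. Each point is 1 member, coloured by its call, and bars are medians, which lie at -0.55 without and -0.52 with covariates in HuH7.

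**Figure D3:**
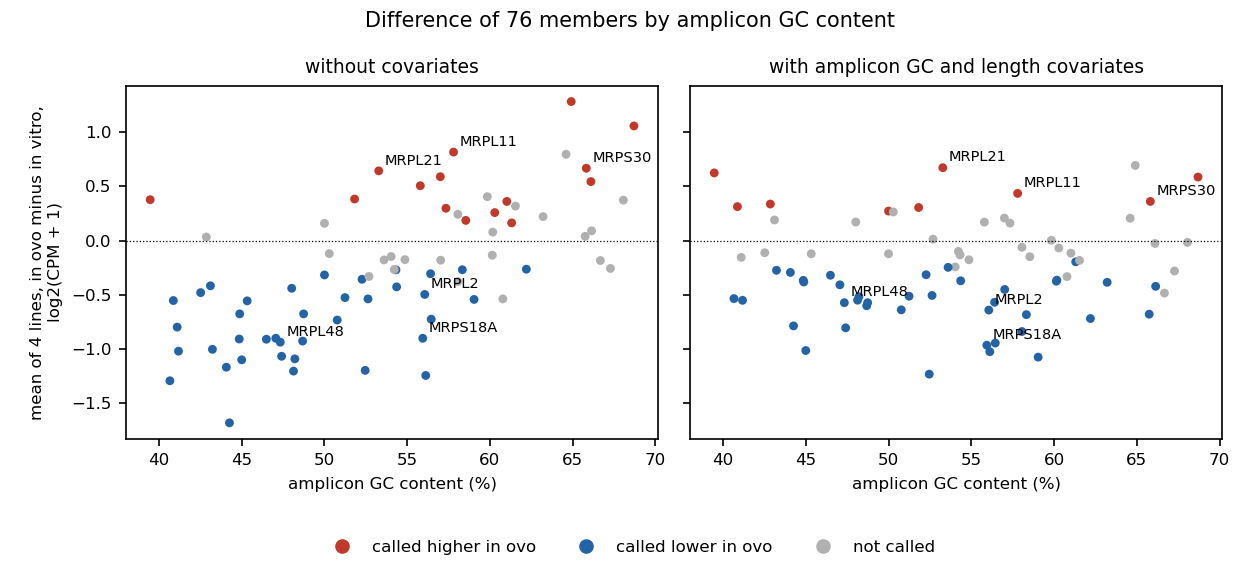
Mean difference over 4 lines, in ovo minus in vitro on the log2(CPM + 1) scale, against amplicon GC content (%) for 76 members, without (left) and with (right) covariates. Spearman's rho is 0.65 on the left and 0.06 on the right.

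MRPL11 rose in HepG2 and Hep3B. It encodes a protein at the base of the stalk, where translation factors dock on the large subunit. In HepG2 it stood at 158, 142, 149 and 147 CPM in the tumours, against 51.6, 50.6 and 54.5 CPM in the cultures. Hep3B tumours had 453, 721, 1042 and 741 CPM, against 260, 256 and 271 CPM in Hep3B cultures. Tumours and cultures did not overlap in either line, and the differences were 1.49 ± 0.17 in HepG2 (SE, adjusted p = 3.66e-07) and 1.43 ± 0.17 in Hep3B (adjusted p = 3.62e-07). In HuH7 the tumours had 271, 261, 314 and 243 CPM and the cultures 231, 233 and 220 CPM, and in PLC/PRF/5 the tumours had 67.2, 64.3, 66.2 and 75.1 CPM and the cultures 64.6, 58.3 and 67.7 CPM. Those differences, 0.25 ± 0.17 and 0.10 ± 0.17, were not called, although all HuH7 tumours lay above the HuH7 cultures. The response of MRPL11 differed between lines (interaction adjusted p = 1.78e-05, and 1.1e-07 with the covariates). With the covariates the rises were 1.34 in HepG2 and 0.79 in Hep3B, both called.

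MRPL21, a large-subunit protein with a bacterial relative, was called higher in 3 lines, and no other member was called higher in as many, while 7.55% of all genes were higher in at least 3. HepG2 tumours had 63.9, 65.4, 135 and 68.2 CPM, against 45.4, 46.9 and 50.6 CPM in HepG2 cultures (0.72 ± 0.23, SE, adjusted p = 0.0259). Hep3B tumours had 223, 272, 299 and 300 CPM, against 114, 123 and 119 CPM in Hep3B cultures (1.19 ± 0.23, adjusted p = 0.000202). HuH7 tumours had 124, 117, 235 and 98.6 CPM, against 89.3, 91.7 and 88.5 CPM in HuH7 cultures (0.59 ± 0.23, adjusted p = 0.0454). In all 3 lines every tumour lay above every culture, and in HepG2 and HuH7 the highest value was that of library 3. In PLC/PRF/5 the tumours lay at 29.4 to 37.6 CPM and the cultures at 29.7 to 35.7 CPM, and the groups overlapped. The HuH7 call was lost with the covariates (0.60, adjusted p = 0.0659).

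MRPS30 sits in the large subunit in spite of its name. In Hep3B it stood at 385, 457, 537 and 278 CPM in the tumours, against 170, 164 and 173 CPM in the cultures (1.25 ± 0.21, SE, adjusted p = 3.76e-05). PLC/PRF/5 tumours had 1021, 700, 1039 and 1192 CPM, against 679, 499 and 594 CPM in PLC/PRF/5 cultures (0.73 ± 0.21, adjusted p = 0.0176). Tumours lay above cultures throughout in both lines. With the covariates the Hep3B rise was 1.00 and called, and the PLC/PRF/5 value was 0.36 (adjusted p = 0.217). In HepG2 and HuH7 the groups overlapped, with values of 0.38 and 0.32.

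**Figure D4:**
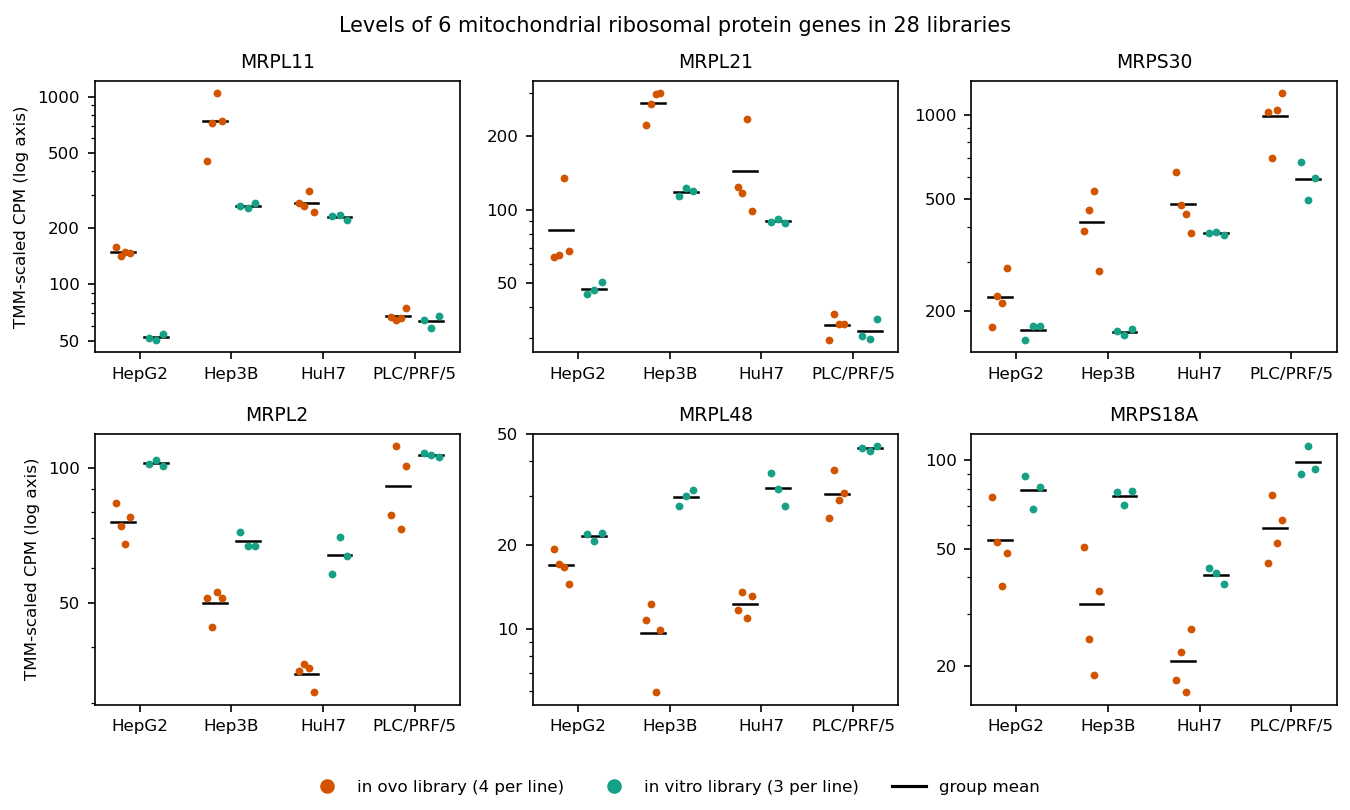
TMM-scaled CPM (log axis) of 6 members in each of 28 libraries, with in ovo libraries (orange) left of in vitro libraries (green) within each line, and bars at group means. MRPL11, MRPL21 and MRPS30 are higher in Hep3B tumours than in Hep3B cultures, and MRPL2, MRPL48 and MRPS18A lower, with no overlap.

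Another 3 members were called higher in 2 lines, so that with MRPL11, MRPL21 and MRPS30 6 of 76 were higher in at least 2, against 20.6% of all genes. MRPL37, a protein of the mitochondrial lineage, averaged 175 ± 52 CPM in HepG2 tumours and 91.9 ± 0.577 CPM in HepG2 cultures (SD, n = 4 and 3), a rise of 0.88 ± 0.22 (SE, adjusted p = 0.00377). In Hep3B it rose by 0.58 (adjusted p = 0.0281), a call lost with the covariates (0.44, adjusted p = 0.0919). MRPL30 rose in HepG2, with tumours at 21.4 to 28.2 CPM against cultures at 12.1 to 16.9 CPM (0.74, adjusted p = 0.0181), and in PLC/PRF/5, with tumours at 18.6 to 26.9 CPM against cultures at 10.5 to 12.8 CPM (0.82, adjusted p = 0.013). These ranges did not overlap, and both calls were also made with the covariates. MRPL28 rose by 0.60 in HepG2 (adjusted p = 0.00608) and by 0.41 in Hep3B (adjusted p = 0.033), but the Hep3B value turned to -0.12 with the covariates and to -0.54 with total counts alone. MRPL37 in Hep3B turned to -0.38 with total counts alone.

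MRPL48 fell in HuH7, Hep3B and PLC/PRF/5. Its product is a protein of the mitochondrial lineage in the large subunit. HuH7 tumours had 11.7, 13.6, 11 and 13.2 CPM, against 36.5, 31.9 and 27.8 CPM in HuH7 cultures (-1.30 ± 0.18, SE, adjusted p = 3.89e-06). Hep3B tumours had 10.8, 12.3, 5.95 and 9.94 CPM, against 27.8, 30 and 31.6 CPM in Hep3B cultures (-1.56 ± 0.18, adjusted p = 2.14e-07). PLC/PRF/5 tumours had 25.1, 37.3, 29 and 30.9 CPM, against 44.6, 43.6 and 45.5 CPM in PLC/PRF/5 cultures (-0.54 ± 0.18, adjusted p = 0.0391). All tumours lay under all cultures in these lines and in HepG2, where the value, -0.34, was not called. The response differed between lines (adjusted p = 0.000731). With the covariates the HuH7 and Hep3B falls were -0.86 and -0.93, both called, and the PLC/PRF/5 value was -0.41 (adjusted p = 0.0943).

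MRPL2, a protein near the peptidyl transferase centre, fell in 3 lines. It was 1 of 6 members lower in at least 3 lines, with MRPL3, MRPL48, MRPS10, MRPS18A and MRPS36, against 4.55% of all genes. For MRPL2, HuH7 tumours had 35.4, 36.6, 35.9 and 31.7 CPM, against 58.1, 70.1 and 63.7 CPM in HuH7 cultures (-0.85 ± 0.14, SE, adjusted p = 2.26e-05). Hep3B tumours had 51.5, 44.3, 53.1 and 51.3 CPM, against 71.9, 67.2 and 66.9 CPM in Hep3B cultures (-0.45, adjusted p = 0.00762). HepG2 tumours had 83.6, 74.2, 67.8 and 78 CPM, against 102, 104 and 101 CPM in HepG2 cultures (-0.43, adjusted p = 0.0203). No tumour reached a culture in these 3 lines, whereas in PLC/PRF/5 the tumours, at 73.3 to 112 CPM, spanned the cultures at 106 to 108 CPM. With the covariates MRPL2 was called lower in all 4 lines, with values from -1.07 in HuH7 to -0.40 in PLC/PRF/5.

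MRPS18A is 1 of 3 human relatives of a bacterial small-subunit protein and sits in the large subunit. In Hep3B it stood at 50.7, 24.7, 18.6 and 35.8 CPM in the tumours, against 78, 70.6 and 78.3 CPM in the cultures (-1.29 ± 0.26, SE, adjusted p = 0.000239). HuH7 tumours had 17.9, 22.2, 16.2 and 26.7 CPM, against 42.9, 41.2 and 38 CPM in HuH7 cultures (-0.96, adjusted p = 0.00447). PLC/PRF/5 tumours had 44.8, 76.3, 52.3 and 62.6 CPM, against 89.6, 112 and 93.5 CPM in PLC/PRF/5 cultures (-0.75, adjusted p = 0.0458). Tumours and cultures did not overlap in these lines, and all 3 falls were also called with the covariates, but edgeR's test did not call the PLC/PRF/5 fall (adjusted p = 0.0514). Its relatives MRPS18B and MRPS18C are small-subunit proteins. MRPS18B was called in HuH7 alone of the lines, with tumours at 32.8 to 45.4 CPM against cultures at 60.3 to 64.1 CPM (-0.68, adjusted p = 0.000713). MRPS18C fell in PLC/PRF/5, with tumours at 3.85 to 6.26 CPM against cultures at 8.11 to 10.2 CPM (-0.74, adjusted p = 0.0167).

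Members of low level were among those that fell in several lines. MRPS10, a protein of the small-subunit head, was called lower in all 4 lines, as was 0.611% of all genes, with values from -0.88 in HepG2 to -1.21 in PLC/PRF/5. Its tumours lay at 0 to 1.04 CPM in HepG2, 0.259 to 0.925 CPM in Hep3B, 0 to 0.771 CPM in HuH7 and 0.227 to 2.42 CPM in PLC/PRF/5, against 1.36 to 6.49 CPM over all cultures, and in each line all tumours lay under all cultures. These tumour values rest on 0 to 28 reads a library. With the covariates MRPS10 was again lower in all 4 lines, but edgeR's test did not call it in HepG2 (adjusted p = 0.0977) or PLC/PRF/5 (adjusted p = 0.0715). MRPL3, a core large-subunit protein, was called lower in HepG2 (-1.25), Hep3B (-1.88) and HuH7 (-1.17), with tumours at 0 to 1.89 CPM against cultures at 2.1 to 4.62 CPM in these 3 lines. The covariates kept the HepG2 call only, and the values in Hep3B and HuH7 were -0.40 (adjusted p = 0.126) and -0.15 (adjusted p = 0.602). By edgeR's test the HuH7 value of MRPL3 was not called either (adjusted p = 0.0612). MRPS36, since also described as a subunit of the 2-oxoglutarate dehydrogenase complex, was called lower at -1.06 in HepG2, -1.14 in Hep3B and -1.06 in HuH7, and kept the HepG2 call with the covariates. edgeR's test called MRPS36 neither in HepG2 (adjusted p = 0.0773) nor in HuH7 (adjusted p = 0.0543). Its HuH7 groups overlapped, since 1 tumour, at 4.8 CPM, lay above the lowest culture, at 4.55 CPM.

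By level, 13 of the 19 members under 10 CPM were lower in Hep3B and none higher, against 0 lower and 7 higher of the 18 at 100 CPM or more. Among all genes under 10 CPM, 31.9% were lower and 14.4% higher in Hep3B, and among all genes at 100 CPM or more, 15.4% were lower and 44.9% higher, so that 7 of 18 is no more than the background. With the covariates 8 of the 19 were lower and 1 higher in Hep3B, against 19.4% and 20.6% of all genes under 10 CPM.

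Among members named for their roles, the stalk proteins besides MRPL11 were called in no line without the covariates. MRPL10 lay at 88.9 to 149 CPM in HuH7 tumours and 126 to 133 CPM in HuH7 cultures, and with the covariates it was called lower in HuH7 (-0.66, adjusted p = 5.99e-05) and Hep3B (-0.45, adjusted p = 0.00276). In Hep3B the covariates turned its direction, since without them the difference was 0.26, with tumours at 107 to 134 CPM against cultures at 97.7 to 107 CPM. MRPL12 was higher in the mean of lines (0.30, adjusted p = 0.0404), a call lost with the covariates (0.16, adjusted p = 0.266). MRPL45, which anchors the ribosome to the inner membrane, stood at 3.51, 0.504, 0 and 0.925 CPM in Hep3B tumours, against 9.37, 9.41 and 7.23 CPM in Hep3B cultures (-2.34 ± 0.47, SE, adjusted p = 0.000259). MRPL44, which has a ribonuclease III-like fold, had 4.37, 0.755, 0 and 1.16 CPM in Hep3B tumours, against 8.71, 8.32 and 9.01 CPM in Hep3B cultures (-2.19 ± 0.42, adjusted p = 0.00016). No tumour of Hep3B reached a culture in either gene. Both were also lower in HuH7 (-1.48 and -1.22), where the covariates left -0.60 (adjusted p = 0.0576) and -0.36 (adjusted p = 0.222). edgeR's test did not call MRPL44 in HuH7 (adjusted p = 0.0617).

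MRPL58, a peptidyl-tRNA hydrolase that rescues stalled ribosomes and is also built into the large subunit, fell in Hep3B, with tumours at 29.3 to 44.7 CPM against cultures at 45.9 to 58.6 CPM (-0.56, adjusted p = 0.028). MRPS12, at the decoding centre, was called in no line, and its tumours ranged from 51.7 to 192 CPM in HuH7, against 54 to 67.6 CPM in HuH7 cultures. MRPS7, a protein of the small-subunit head, fell by 1.23 in HuH7 (adjusted p = 0.00346) and by 1.32 in Hep3B (adjusted p = 0.00137), where the covariates ended the call (-0.30, adjusted p = 0.184). In PLC/PRF/5 its tumours, at 31.3 to 36.7 CPM, lay under the cultures, at 58.1 to 60.8 CPM, and the value of -0.77 was called only with the covariates (-0.56, adjusted p = 0.0286). MRPS16 was lower in HuH7 (-1.38, adjusted p = 0.0242) and Hep3B (-1.18, adjusted p = 0.0431), and both were also called with the covariates, but by edgeR's test neither was (adjusted p = 0.0676 in HuH7 and 0.0821 in Hep3B). MRPS22 was lower in Hep3B alone of the lines (-0.84, adjusted p = 0.0064), a call the covariates ended (-0.30, adjusted p = 0.21).

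MRPS34, needed in humans for a stable small subunit, had the highest amplicon GC content of the members and tumours that lay far apart. HepG2 tumours had 123, 138, 690 and 339 CPM, against 82.9, 77.7 and 101 CPM in HepG2 cultures. HuH7 tumours had 631, 167, 1017 and 94.5 CPM, against 153, 138 and 129 CPM in HuH7 cultures. PLC/PRF/5 tumours had 296, 122, 948 and 244 CPM, against 217, 172 and 225 CPM in PLC/PRF/5 cultures. Library 3 was the highest tumour in these 3 lines, and replicate 1, at 637 CPM, in Hep3B. No single line was called, and the difference in the mean of lines was 1.06 ± 0.35 (SE, adjusted p = 0.00989). With the covariates that difference was 0.59 (adjusted p = 0.0452).

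Several further members of both subunits fell in 1 or 2 lines. MRPS35, a small-subunit protein of the mitochondrial lineage, fell in HuH7, where the tumours had 202, 188, 142 and 168 CPM, against 342, 365 and 331 CPM in the cultures (-0.99 ± 0.19, SE, adjusted p = 0.000249), and in HepG2 (-0.65, adjusted p = 0.0143). MRPS5 fell in HuH7 (-0.70, adjusted p = 0.0107) and HepG2 (-0.63, adjusted p = 0.0306). MRPL39 fell in HuH7 (-1.69, adjusted p = 0.00181) and Hep3B (-1.48, adjusted p = 0.00389). These calls of MRPS35, MRPS5 and MRPL39 were all made with the covariates too. MRPL35 fell in HuH7, with tumours at 4.38 to 24.3 CPM against cultures at 35.1 to 38.9 CPM (-1.37, adjusted p = 0.00963). MRPL19 fell by 1.49 in Hep3B (adjusted p = 0.0056) and fell in HuH7, with tumours at 3.54 to 17 CPM against cultures at 20.8 to 23.1 CPM (adjusted p = 0.0265), where the covariates ended the call (-0.56, adjusted p = 0.0597). MRPS17 fell by 1.45 in HuH7 (adjusted p = 0.00988) and by 1.40 in Hep3B, where the covariates ended the call (-0.53, adjusted p = 0.092). MRPL33 fell in PLC/PRF/5, with tumours at 54.7 to 58.6 CPM against cultures at 80.7 to 92.9 CPM (-0.57, adjusted p = 0.0281).

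The response of 13 of 76 members differed between lines, against 41.8% of all genes, and 22 did with the covariates, against 46%. Without the in ovo libraries numbered 3 it was 36 members, against 61.4% of all genes. MRPL16, a protein near the tRNA sites, fell in HuH7, where the tumours had 39.1, 46.3, 35.1 and 40.7 CPM, against 73.8, 77.1 and 72.1 CPM in the cultures (-0.87 ± 0.15, SE, adjusted p = 5.35e-05). In HepG2 its value was 0.21, with the groups overlapping, and the interaction was called (adjusted p = 0.00131). MRPL40 fell in HuH7 (-0.68, adjusted p = 0.00431), with a value of 0.40 in HepG2 (interaction adjusted p = 0.00995). MRPL57 rose in HepG2, with tumours at 109 to 124 CPM against cultures at 79.2 to 86.6 CPM (0.51, adjusted p = 0.00699), and stood at -0.28 in HuH7 (interaction adjusted p = 0.012). With the covariates the MRPL57 rise in HepG2 was not called (0.29, adjusted p = 0.363), and it was lower in HuH7 (-1.06). In each of these 3 members HuH7 had the lowest difference and HepG2 the highest. With the covariates MRPL16, MRPL28 and MRPL40 were called in opposite directions in different lines, as were 11.9% of all genes. The count of members with an interaction was 28 when Hep3B in ovo replicate 1 was left out, and 8 when Hep3B in ovo replicate 2, or either of the Hep3B cultures numbered 1 and 2, was left out. Shares of all genes are not given for these omissions, so a move of the members cannot be told from a move of all genes.

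Levels also differed between lines within a condition. In ovo, 61 of 76 members differed between lines, against 85.8% of all genes, and in vitro 46, against 71.5%. With the covariates the counts were 62 in ovo, against 86.9%, and 58 in vitro, against 79.3%. By edgeR's test 60 differed in ovo, against 84.8%, and 43 in vitro, against 71.2%, and the interaction was called for 8, against 33.5%. MRPL43, a protein of the mitochondrial lineage, stood far lower in one line. Its amplicon stood at 3.75, 4.29, 5.21 and 6.81 CPM in PLC/PRF/5 tumours and at 3.91, 3.82 and 3.53 CPM in PLC/PRF/5 cultures. In the other lines it stood at 97.5 to 275 CPM in the tumours and 75.9 to 113 CPM in the cultures, so that no library of another line came near PLC/PRF/5 (adjusted p = 5.37e-15 in ovo and 5.79e-13 in vitro). In Hep3B it was higher in the tumours by 1.00 (adjusted p = 0.00492), a call lost with the covariates (0.28, adjusted p = 0.214). Whether transcripts outside the 3 that hold this amplicon differ in the same way was not tested. MRPL36 was highest in PLC/PRF/5, with 188 ± 10.1 CPM in the tumours and 152 ± 23.1 CPM in the cultures, and lowest in HuH7, with 27.5 ± 5.22 CPM in the tumours and 29 ± 0.9 CPM in the cultures (SD, n = 4 and 3). MRPL24 in culture ran from 38.5 ± 4.41 CPM in HepG2 through 79.8 ± 0.773 CPM in Hep3B and 133 ± 11.7 CPM in HuH7 to 227 ± 44 CPM in PLC/PRF/5. MRPL11 in the tumours ran from 68.2 ± 4.74 CPM in PLC/PRF/5 through 149 ± 6.76 CPM in HepG2 and 272 ± 30.3 CPM in HuH7 to 739 ± 241 CPM in Hep3B.

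Promoters of the members were read from RefSeq (GRCh38.p14), as 250 bases before to 50 after each start, for the 69 members that matched of 27305 promoters in all. The letters AAGATGGCG, an element that YY1 binds, stood on either strand in 13 of 69 (18.8%), against 1.85% of all promoters. CCGGAAGT, bound by ETS factors such as the one formed by GABPA, stood in 11 of 69 (15.9%), against 4.44%. TGCGCA, the core of the NRF1 element, stood in 14 of 69 (20.3%), against 8.42%, and a longer palindromic NRF1 element, whose letters overlap that core in part, in 1 of 69 (1.45%), against 1.36%. The letters AAGATGGCG, CCGGAAGT and TGCGCA occurred among members that fell, rose or were not called. In the mean of lines AAGATGGCG stood in 4 of 33 members that fell, 3 of 13 that rose and 6 of 22 not called, and CCGGAAGT in 5 of 33, 1 of 13 and 4 of 22. The remaining promoter with CCGGAAGT is that of MRPL47, which was not tested. The 250 bases before the start are shown for a member that fell, MRPL3, and for one higher in the mean of lines, MRPS34, which share the ETS letters (capitals, in MRPS34 on the opposite strand). They lie at chr3:131502972-131503221 and chr16:1773135-1773384 on the minus strand and are written in the direction of the gene.
MRPL3: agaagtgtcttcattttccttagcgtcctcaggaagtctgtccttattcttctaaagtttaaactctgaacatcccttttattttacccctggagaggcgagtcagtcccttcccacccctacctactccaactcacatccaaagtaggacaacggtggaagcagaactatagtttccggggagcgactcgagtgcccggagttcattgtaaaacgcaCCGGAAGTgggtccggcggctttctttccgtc
MRPS34: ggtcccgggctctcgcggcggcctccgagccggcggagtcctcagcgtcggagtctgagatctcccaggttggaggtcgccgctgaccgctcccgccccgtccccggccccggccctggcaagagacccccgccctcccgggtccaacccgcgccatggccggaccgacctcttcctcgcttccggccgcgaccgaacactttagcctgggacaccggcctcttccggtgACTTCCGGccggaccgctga

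Genes that build and serve the mitochondrial ribosome moved in both directions, and their counts stand beside 32.6% of all genes lower and 33.7% higher in the mean of lines (29% and 29.9% with the covariates). Among 5 ribosome proteins under other symbols, AURKAIP1, a small-subunit protein, rose in all 4 lines, with means of 106 ± 64.7 CPM in HepG2 tumours and 28.9 ± 5.54 CPM in HepG2 cultures (SD, n = 4 and 3) and differences from 1.45 to 1.68. DAP3, a GTP-binding small-subunit protein, fell in HuH7, with 128 ± 39.6 CPM in the tumours and 259 ± 7.64 CPM in the cultures (-1.08, adjusted p = 0.00263). Of 14 translation factors tested, 8 were lower and 3 higher in the mean of lines, with a median of -0.62. The elongation factor TUFM fell by 1.22 in HuH7 (adjusted p = 0.00303) and by 1.13 in Hep3B (adjusted p = 0.00404), and GFM1, the elongation factor that moves the ribosome along, fell by 1.78 in HuH7 and by 1.98 in Hep3B. With the covariates 5 translation factors were lower and 2 higher, with a median of -0.05. In Hep3B, 7 translation factors were lower and 3 higher without the covariates (27.4% and 24.6% of all genes), and 4 and 2 with them (21.6% and 23.1%). In HuH7, 5 were lower and 1 higher without the covariates (19.8% and 23.6%), and 4 and 0 with them (21.3% and 19.9%). Unless said otherwise, differences of single genes here and in the next paragraph are without the covariates.

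Of 28 assembly factors, 14 were lower and 8 higher, and 9 and 7 with the covariates. MPV17L2, which takes part in assembly at the inner membrane, had 8.33 ± 5.68 CPM in HuH7 tumours and 33.8 ± 1.18 CPM in HuH7 cultures (-2.18, adjusted p = 0.00178). The 19 mitochondrial aminoacyl-tRNA synthetases and related genes had 5 lower and 8 higher, shares of 26.3% and 42.1%, and with the covariates 3 lower and 4 higher, with a median of 0.09 without and -0.03 with them. CARS2, which charges the cysteine tRNA, rose in all 4 lines, by 0.73 to 1.62, of which the HepG2 and Hep3B calls were also made with the covariates. Of 15 genes of mitochondrial transcription and RNA processing, 7 were lower and 1 higher (8 and 1 with the covariates), and of 18 genes of membrane insertion, chaperones and proteases, 8 were lower and 4 higher (8 and 1 with the covariates). HSPA9, the chaperone that pulls imported proteins into the matrix, had 40.6 ± 23.7 CPM in HuH7 tumours and 198 ± 8.07 CPM in HuH7 cultures (-2.54, adjusted p = 0.000598). Of 12 regulators of mitochondrial biogenesis, 4 were lower and 5 higher, and 4 and 4 with the covariates, with HCFC1 up in the mean of lines (1.36, adjusted p = 2.23e-07) and YY1 down (-1.04, adjusted p = 0.00322).

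Of the 86 cytosolic ribosomal protein genes in the table, 81 were tested. In HuH7, 36 of them were lower and 1 higher, beside 32 and 1 of the 76 mitochondrial members, and in Hep3B 34 and 18, beside 27 and 9. In PLC/PRF/5, 0 were lower and 23 higher, beside 5 and 2 of the mitochondrial members. The shares of all genes were 19.8% lower and 23.6% higher in HuH7, 27.4% and 24.6% in Hep3B, and 5.61% and 11.9% in PLC/PRF/5. With the covariates 34 cytosolic genes were lower and 2 higher in HuH7, 20 and 10 in Hep3B, and 1 and 22 in PLC/PRF/5. The medians in PLC/PRF/5 were 0.44 for the cytosolic and -0.26 for the mitochondrial genes, and 0.45 and -0.21 with the covariates. No test compared the lists.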

How the data were processed

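Per the labels' protocols, libraries came from 500 ng of total RNA through DriverMap targeted amplicons. The build listed is hg38, per the submitters' processing notes. No aligner, counter or filter was given in the sources used here. The authors deposited 1 signal value per amplicon and library, scaled so that every library adds up to 500000. At least 99.9473% of values lay within 0.01 of a whole read, and these reads gave CPM. Of the deposited values, 1 was not readable as a number (KRT18, not a member) and was filled from its library's total.

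TMM factors were taken over all amplicons, and filterByExpr (at least 10 reads) kept 13100 genes. limma 3.58.1 (R 4.3.3) with a trended variance was fitted to log2(CPM + 1) over 8 groups (20 residual degrees of freedom), two-sided, with Benjamini-Hochberg adjustment over all genes and a threshold of 0.05. For the covariates, each library's deviations were fitted on splines (4 degrees of freedom) of amplicon GC content and log2 length, and the fit was subtracted. edgeR 4.0.16 and DESeq2 1.42.0 served as alternatives on recovered reads. The scripts were tested on simulated data.

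The members, the lists and the rule for named genes were chosen with earlier results of these data known. Named members are those with set roles, the 4 highest and lowest called per line at 10 CPM or more, those called the same way in the most lines, those with the smallest interaction p, and those with the widest range between lines. Other members mentioned follow from counts or from overlapping annotation, except MRPS26 and MRPL34, which were chosen after their values were seen. Pathway genes named are among the 3 largest called changes of their list, except DAP3 and TUFM, which were chosen after their values were seen.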

Additional observations from a re-analysis of the deposited data

Results flagged for a closer look

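In 9 of the 152 tumour groups of 4 libraries looked at, for the 38 named members, 1 library lay far from the others by Dixon's ratio. Chance gives about 1 in 20 groups. In HepG2, library 3 was the highest for MRPL12 (193 CPM, the others 109 to 113), MRPL21 (135, the others 63.9 to 68.2), MRPL24 (155, the others 47.6 to 49.3), MRPL33 (59, the others 33 to 37.3), MRPL37 (253, the others 145 to 153) and MRPL43 (215, the others 106 to 119). In PLC/PRF/5, library 3 was the highest for MRPL12 (146, the others 93.4 to 101) and library 2 for MRPS36 (3.44, the others 2.15 to 2.31). In HuH7, library 4 had 0.343 CPM of MRPL47 and the others 0. Members that were not named were left out of this screen. Among them, MRPS26 had 1144 reads in HepG2 tumour library 3 (the others 60 to 99) and 1031 in HuH7 tumour library 3 (the others 72 to 114). MRPL34 had 406 (39 to 52) and 578 (46 to 71). In HuH7, edgeR's test called both higher (adjusted p = 0.0187 for MRPS26 and 0.0464 for MRPL34), and limma called neither.

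MRPL11, MRPL16, MRPL28, MRPL40, MRPL48 and MRPL57 were named at least partly for a small interaction p, so the count that follows was partly set by that choice. Against 41.8% of all genes, the response in ovo differed between lines for 9 of the 38 named members, by limma's F test of the interaction. Their adjusted p values were 1.78e-05 for MRPL11, 0.000731 for MRPL48, 0.00131 for MRPL16, 0.00597 for MRPL28, 0.00995 for MRPL40, 0.012 for MRPL57, 0.0279 for MRPL44, 0.0366 for MRPL30 and 0.044 for MRPS30. By edgeR's test the interaction was not called for MRPL44 (adjusted p = 0.127), MRPL30 (adjusted p = 0.0556) or MRPS30 (adjusted p = 0.0516), and with GC content and length as covariates it was not called for MRPL30 (adjusted p = 0.0616). MRPL44 fell by 2.19 in Hep3B on the log2 scale and stood at -0.13 in PLC/PRF/5, with values of -0.47 in HepG2 and -1.22 in HuH7. MRPS30 stood at 1.25 in Hep3B and 0.32 in HuH7.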

How the results depend on the processing

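Of 2629 alternative values for the 60 called pairs of a named member and a line, 2390 kept direction and call, 234 kept direction only and 5 turned, namely MRPL28 in Hep3B (-0.122 with GC content and length, -0.071 with mean level added, -0.539 with total counts, -0.156 with the replicate block and GC content and length) and MRPL37 in Hep3B (-0.384 with total counts). Many of the 2629 values come from leaving out 1 library, often of a line other than that of the pair, so the total says little about the other settings. Per setting, 41 to 60 pairs kept direction and call. The figure was 43 with GC content and length, 44 with each line fitted alone, and 41 with the replicate block and GC content and length. Counts of members that moved by over 1.5 times are given next. DESeq2's Wald test gave 2 higher in HuH7. DESeq2's size factors gave 0 higher in HuH7 and 0 higher and 9 lower in PLC/PRF/5. GC content and length gave 5 higher in Hep3B, 1 higher and 12 lower in PLC/PRF/5, 9 higher in the mean of lines and 22 for the interaction. With mean level added these were 10 higher in HepG2, 4 in Hep3B, 3 in HuH7, 1 higher and 14 lower in PLC/PRF/5 and 9 higher in the mean. A 2-fold minimum, which lowers counts by construction, left 1 higher and 2 lower in HepG2, 4 higher in Hep3B, 0 higher and 19 lower in HuH7, 0 higher and 1 lower in PLC/PRF/5, and 2 higher and 11 lower in the mean. Each line alone gave 14 higher in Hep3B, 0 higher and 21 lower in HuH7 and 15 lower in PLC/PRF/5. edgeR's test gave 3 higher in HuH7, 3 lower in PLC/PRF/5 and 8 for the interaction. No filter gave 0 higher in HuH7, a pseudocount of 5 gave 9 lower in PLC/PRF/5, and a stricter filter gave 3 lower in HepG2. Total counts gave 2 higher in HepG2, 1 higher and 59 lower in Hep3B, 0 higher in HuH7, 8 lower in PLC/PRF/5, 4 higher in the mean and 24 for the interaction. Without the in ovo libraries numbered 3 there were 10 higher in HepG2, 15 in Hep3B, 2 in HuH7, 15 lower in PLC/PRF/5 and 36 for the interaction. Apart from the 2-fold minimum, the cause was not tested. Where no share of all genes is given for a setting, a moved count of members cannot be told from a move of all genes. The same holds for the replicate block and the libraries left out below.

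Deviations of same-numbered samples correlated at -0.0955 to 0.457. Only HepG2 cultures 1 and 3 and PLC/PRF/5 cultures 2 and 3 correlated best with the tumour of their own number, and no culture of Hep3B or HuH7 did. With 3 or 4 libraries per group, these values cannot decide whether replicate numbers paired the samples. The replicate block gave 6 higher in HuH7, 2 lower in PLC/PRF/5, and 27 members differing between lines in vitro and 40 in ovo. With GC content and length added the block gave 3 lower in HepG2, 4 higher in Hep3B, 3 in HuH7, 1 higher and 8 lower in PLC/PRF/5 and 9 higher in the mean. Leaving out each library in turn gave 4 to 7 higher and 1 to 10 lower in HepG2, 6 to 12 and 23 to 33 in Hep3B, 0 to 5 and 23 to 35 in HuH7, 0 to 3 and 1 to 9 in PLC/PRF/5, 10 to 20 and 37 to 43 in the mean, 8 to 28 for the interaction, 39 to 52 between lines in vitro and 57 to 66 in ovo. At these depths members near 1 CPM rest on few reads, and intervals and floors cover counting error only.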
